A study of Bombyx mori with 3 samples.

Results

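Cytoplasmic ribosomal proteins were followed in dissociated silk glands of the silkworm *Bombyx mori* through 79 genes, all the features whose identifier starts with RpL or RpS, out of 16880 features in the count tables. The rule took 47 RpL identifiers, named for the large ribosomal subunit, and 32 RpS identifiers, named for the small subunit. All 79 genes had at least 1 count in each library. The names were taken as given, and the annotation went against 1 of them. In the study's gene tables RpL7Ae is described as ribosomal protein L7Ae but carries the symbol SNU13, which in yeast and human is a protein of small nucleolar and spliceosomal ribonucleoproteins rather than of the ribosome. The rule also missed 5 genes annotated as or known to be parts of the cytoplasmic ribosome (RpP0, RpP1, Rack1, LOC692779 and LOC101738375), which are described apart from the members.

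The glands came from the Nistari strain and were untreated. The 3 stages were embryos 8 days after egg laying (E8D), first-instar larvae on their first day (day 1, 1L1D) and larvae at the first molt (1LM). Each stage was 1 library made by the 10x Genomics Chromium 3′ method from a mixture of about 2000 glands, so the stage cannot be told apart from the library and no test between stages was possible. A label tag also reads "In vitro expansion", although no culture step is described.

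Each ribosome holds a single copy of nearly every ribosomal protein. Cells therefore make these proteins in matched amounts, and surplus copies are broken down. The ribosomal proteins of the small subunit help to decode the mRNA and those of the large subunit surround the site of peptide bond formation and the exit tunnel. In the silk gland, where the posterior part secretes fibroin and the middle part sericin, protein synthesis is the main task of the cell.

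The unit of measurement was the unique molecular identifier (UMI), which counts a captured mRNA molecule once, and CPM is UMIs per 1000000 UMIs of the library. CPM was not divided by gene length, because the 3′ method counts a molecule and not its length. The quality filter left 4880 cells with 6878383 UMIs for E8D, 4339 with 18546139 for 1L1D and 7125 with 13120838 for 1LM, and a cell had a median of 738, 1845 and 1465 UMIs. Barcodes with an extreme ratio of UMIs to genes were removed, which had a median of 8019 to 31081.5 UMIs. Their ribosomal protein share was 27.6%, 36.9% and 32.1%, above that of the kept cells in each library. In barcodes removed for mitochondrial RNA it was 13.6%, 20.5% and 11.4%, below the kept cells. All removed barcodes together held 45.3%, 43.1% and 20.9% of the UMIs. The filter thus acts on the share measured here, and values with all barcodes are given at the end. Between 10 and 12 barcodes were shared by each pair of libraries. All 5 silk protein genes checked had UMIs in each library, at a summed level of 3226 CPM at E8D, 57701 CPM at 1L1D and 33431 CPM at 1LM. The hemocyte marker PPO1 was at 0 UMIs at E8D and at 1.19 and 1.37 CPM later, 3 fat body genes summed to 164 to 725 CPM, with 1 of the 3 at 0 at 1L1D, and a muscle gene had 37.2 to 55.3 CPM, and the part of these cell types in the results was not tested. All intervals below are exact 95% intervals that cover counting error only, not variation between animals or libraries.

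Ribosomal protein mRNAs were a large part of all UMIs at each stage, and the share was highest at 1L1D. The share was 23.1% at E8D (interval 23.03 to 23.09), 27.7% at 1L1D (27.66 to 27.70) and 23.9% at 1LM (23.90 to 23.94). In summed UMIs, fewer cells of a type and less RNA per cell cannot be told apart. The counts behind these shares were 1586356, 5133728 and 3138570 UMIs. Members filled 66, 61 and 60 of the first 100 places when genes were ordered by UMIs. The log2 ratio of the share was 0.26 for 1L1D over E8D (0.26 to 0.27), −0.21 for 1LM over 1L1D (−0.21 to −0.21) and 0.05 for 1LM over E8D (0.05 to 0.06). The first and the second of these held their sign in each of the 8 alternatives tried, and the third turned to −0.77 with edgeR's TMM factors and −0.86 with DESeq2's size factors. Both of these scalings set the bulk of genes equal between libraries.

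That dependence on the scaling bears on every level given here in CPM. Over the 6363 genes tested, the median log2 CPM ratio of 1L1D over E8D was −0.29, while that of the 78 members tested was 0.25, and 68 of the 78 lay above the median of all genes. From 1L1D to 1LM the median of all 7599 genes tested was 1.17 and that of the members −0.25, with 75 of 78 members below the median of all genes. The medians of 1LM over E8D were 0.86 over 7186 genes and 0.03 over the members, and all 78 members tested lay below. So relative to the other genes the members stood higher at 1L1D than at E8D and lower at 1LM than at either earlier stage, while as a part of all UMIs they were nearly as large at 1LM as at E8D. The number of detected genes per cell also differed, with a median of 268, 446 and 682.

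Single cells covered a wide range of shares. At E8D the ribosomal protein share of a cell ran from 2.42% to 52.1% with a median of 19.3%, at 1L1D from 5.68% to 62.2% with a median of 28.95%, and at 1LM from 3.09% to 52.2% with a median of 24.6%. The quartiles of the cells lay at 13.96% and 26.3% for E8D, 21.1% and 36.5% for 1L1D, and 19.2% and 27.8% for 1LM. The 3 ranges overlapped over most of their width, and the 1LM cells were the most closely packed. Of the 7125 cells of 1LM, 2110 fell in an unnamed cluster of shallow barcodes, described further on, with quartiles at 24.2% and 26.99%. Whether the 1LM cells are as closely packed without that cluster was not tested. After a random draw of 1000 UMIs from every cell that had as many, the medians were 21.6%, 28.8% and 24.3% over 1462, 4339 and 5382 cells, and all UMIs of those cells gave 21.6%, 28.95% and 24.3%.

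**Figure D1:**
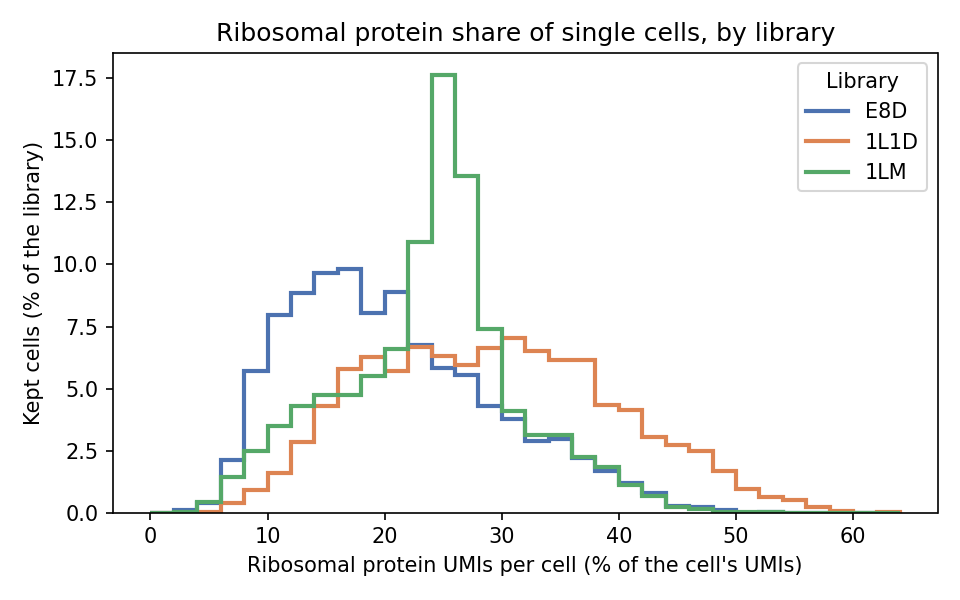
Ribosomal protein UMIs of each kept cell as a percent of that cell's UMIs (x axis, bins of 2 percentage points) against the percent of the library's cells in each bin (y axis), 1 line per library. The median cell has 19.3% at E8D, 28.95% at 1L1D and 24.6% at 1LM, and the 1LM cells form a narrow peak near 25%. An unnamed cluster of shallow 1LM barcodes has its quartiles at 24.2% and 26.99%.

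Depth and mitochondrial RNA moved with the share in the E8D library. With its cells cut into 4 bins of equal size by depth, the share was 19.5%, 19.6%, 20.4% and 24.9% from shallow to deep, and by mitochondrial share it was 25.7% in the lowest bin and 17.96% in the highest. At 1L1D the bins by depth gave 28.4%, 30.0%, 30.8% and 26.6%, with the lowest share in the deepest cells. At 1LM the bins by depth lay between 22.9% and 24.5%. By mitochondrial share, the lowest bin had 28.4% and the highest 25.97% at 1L1D. At 1LM these bins had 25.3% and 23.6%, with the lowest share, 22.2%, in the second bin. The part of depth in the difference between the stages was not tested beyond the thinning above.

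The summed UMIs of large and small subunit members kept nearly the same ratio at all 3 stages. RpL members had 839208, 2682446 and 1671387 UMIs in the 3 libraries, against 747148, 2451282 and 1467183 for RpS members. The large over small ratio was 1.12 at E8D (1.120 to 1.127), 1.09 at 1L1D (1.092 to 1.096) and 1.14 at 1LM (1.137 to 1.142). These intervals did not overlap, but the ratios spanned only from 1.09 to 1.14. The sums cover 47 RpL and 32 RpS identifiers, so they do not compare single genes. Without RpL7Ae, RpL20, RpL24-2 and RpL29, 43 RpL and 32 RpS members remained. Their median was 2598 CPM for RpL and 3052 for RpS at E8D, 2956 and 3840 at 1L1D, and 2794 and 3441 at 1LM. Per gene the small subunit members thus stood higher. The median log2 CPM ratio of the large subunit members minus that of the small subunit members was −0.09, 0.05 and 0.05 in the 3 comparisons. Within single cells the large subunit's part of member UMIs had a standard deviation of 4.62, 2.65 and 3.11 percentage points, where binomial counting alone gives 4.28, 2.17 and 2.84.

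Single members seldom moved by 2-fold between stages. A gene was called when its CPM differed by at least 2-fold, its interval left out 0 and it had at least 100 UMIs in the 2 libraries together. For 1L1D over E8D 4 of the 78 members tested were called, 1 higher and 3 lower, where 35.1% of all genes tested were called (12.8% higher and 22.4% lower). In 1LM over 1L1D 3 of 78 were called, all higher, against 62.9% of all genes (57.9% higher and 5.01% lower). In 1LM over E8D 1 of 78 was called, lower, against 52.0% of all genes (46.3% higher and 5.68% lower). The gene called higher at 1L1D was RpL19, at 3707 CPM at E8D, 7448 CPM at 1L1D and 5508 CPM at 1LM, with a log2 ratio of 1.01 (0.99 to 1.03) that only just passed. RpL19 is a large subunit protein that forms contacts with the small subunit. The comparisons share libraries, so their counts are not independent. With TMM factors 5 members were called higher at 1L1D over E8D, and 3 lower, where 17.6% and 14.5% of all genes were. From 1L1D to 1LM 0 were called higher and 61 lower, against 17.8% and 13.1% of all genes, and for 1LM over E8D 0 higher and 27 lower, against 27.5% and 18.9%. With DESeq2's size factors the counts were 5 higher and 3 lower (17% and 15.4% of all genes), 0 higher and 62 lower (17.1% and 13.9%), and 0 higher and 30 lower (25.9% and 21.1%).

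The distance of each member from the median member does not depend on the scaling between libraries. For 1L1D over E8D 66 of 78 members lay within 1.5-fold of the median member, for 1LM over 1L1D 68 and for 1LM over E8D 69. Of all genes tested, 45.6%, 47.9% and 33.0% lay within 1.5-fold of the median of all genes. A distance of 2-fold or more was reached by 3, 3 and 1 members, all with RpL names, where 41.7%, 72.4% and 51.6% of all genes tested stood as far from the median member. The median of all genes lay at −0.29, 1.17 and 0.86, apart from the 0.25, −0.25 and 0.03 of the median member. That offset enters these percents, so they are not a like measure of spread. The departing members were RpL7Ae, RpL20 and RpL24-2 in the first and second comparison and RpL7Ae alone in the third. Together with RpL29 these made up 0.246%, 0.0391% and 0.133% of member UMIs.

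**Figure D2:**
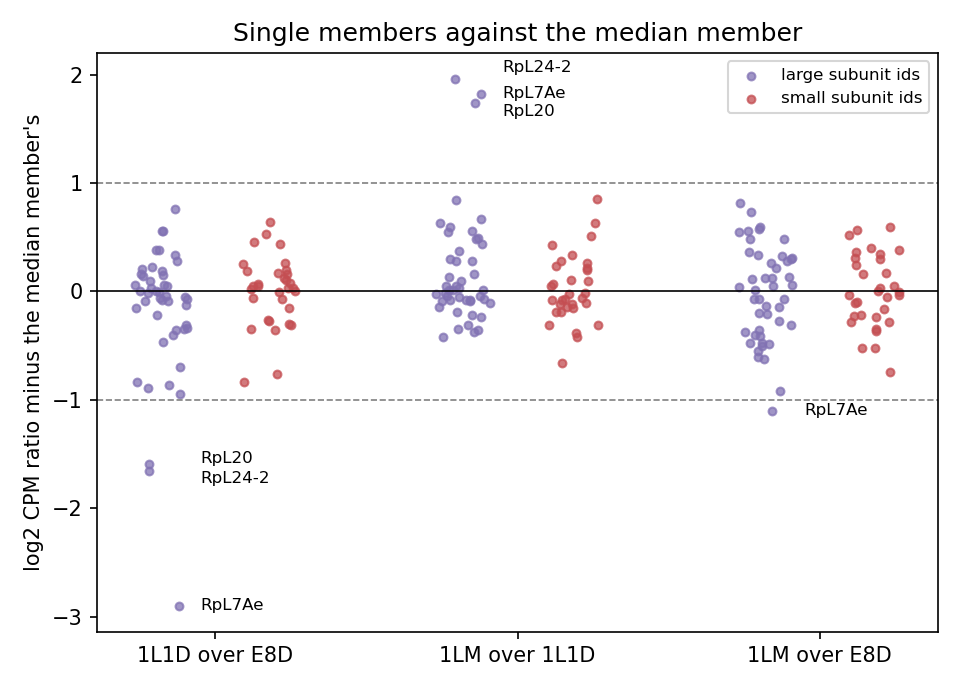
Each point is 1 member with at least 100 UMIs in the pair of libraries (78 per comparison), and the y axis gives its log2 CPM ratio minus that of the median member. Purple points are RpL and red points RpS identifiers, dashed lines mark 2-fold, and only RpL7Ae, RpL20 and RpL24-2 lie outside them.

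RpL7Ae departed the most. It had 3379, 1448 and 3060 UMIs in E8D, 1L1D and 1LM, or 491 CPM, 78.1 CPM and 233 CPM. It was high at E8D, lowest at 1L1D and in between at 1LM. The log2 CPM ratio was −2.65 for 1L1D over E8D (−2.74 to −2.56), 1.58 for 1LM over 1L1D (1.49 to 1.67) and −1.07 for 1LM over E8D (−1.146 to −1.004), at a distance of −2.90, 1.82 and −1.10 from the median member. In yeast and human, SNU13 is a core protein of the box C/D small nucleolar ribonucleoproteins, which guide the methylation of ribosomal RNA, together with fibrillarin, NOP56 and NOP58. The genes annotated as these proteins, LOC101742289, LOC101737128 and LOC101742458, had log2 CPM ratios of −2.13 (−2.22 to −2.04), −1.61 (−1.72 to −1.50) and −1.71 (−1.79 to −1.62) for 1L1D over E8D. For 1LM over 1L1D they had 2.19, 1.46 and 1.39, next to 1.58 for RpL7Ae. For 1LM over E8D they had 0.06, −0.15 and −0.31, all closer to 0 than the −1.07 of RpL7Ae. The dip at 1L1D was not particular to these proteins. All 13 ribosome assembly genes tested, described further on, had a lower CPM at 1L1D than at E8D, with log2 ratios from −2.34 to −0.04. For 1LM over E8D the ratios of that list ran from −1.27 to 1.99.

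RpL20 and RpL24-2 were low genes that shared the dip at 1L1D and are given by name only, since neither has a description in the sources used here. RpL20 had 458, 487 and 970 UMIs, or 66.6, 26.3 and 73.9 CPM. Its log2 CPM ratio was −1.34 (−1.53 to −1.16) for 1L1D over E8D, 1.49 (1.33 to 1.65) for 1LM over 1L1D and 0.15 (−0.01 to 0.31) for 1LM over E8D. RpL24-2 had only 65, 66 and 153 UMIs, or 9.45, 3.56 and 11.7 CPM. Its log2 CPM ratio was −1.41 (−1.93 to −0.89) and 1.71 (1.29 to 2.15) in the first and second comparison and 0.30 (−0.12 to 0.74) in the third. Both were lowest at 1L1D, and for both E8D and 1LM did not differ beyond counting error. The main copy, RpL24, a large subunit protein at the face that meets the small subunit, had 2016, 3514 and 2877 CPM and so was highest at 1L1D. How the counting split reads between RpL24 and RpL24-2 was not examined, so the low counts of RpL24-2 are uncertain.

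RpL29 had only 3, 4 and 2 UMIs, and no fold is given for it. LOC101738375, annotated as 60S ribosomal protein L29-like and missed by the prefix rule, had 23307, 45431 and 36271 UMIs, or 3388, 2450 and 2764 CPM. How the counting split reads between these genes was not examined.

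The other 75 members each had 528 CPM or more in every library. Their CPM ran from 827 to 6934 at E8D, from 528 to 12080 at 1L1D and from 603 to 10551 at 1LM, all above the median detected gene at 8.43, 5.61 and 9.53 CPM. RpLP2, an acidic protein of the stalk that recruits elongation factors, had the most UMIs of all members in each library, with 47697, 224037 and 138437. Its part of member UMIs was 3.01%, 4.36% and 4.41%, so it stood higher at both larval stages than at E8D. Its log2 CPM ratio was 0.80 for 1L1D over E8D (0.79 to 0.82), which is 0.55 above the median member. After RpLP2 came RpS25 with 2.90% and RpS23 with 2.46% at E8D, RpS20 with 2.83% and RpL19 with 2.69% at 1L1D, and RpS20 with 2.55% and RpS3Ae with 2.41% at 1LM. These were all small subunit proteins except RpL19. The partners of RpLP2 in the stalk, RpP0 and RpP1, had 2820 and 8157 CPM at E8D, 2977 and 9950 CPM at 1L1D, and 3357 and 9819 CPM at 1LM.

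Just inside the 2-fold limit stood a set of 7 members that were low at 1L1D against E8D. RpL41, RpL39, RpL37, RpS29, RpL36A, RpS21 and RpL37A lay 0.70 to 0.95 below the median member on the log2 scale, and the next in order, RpL35A, lay at −0.47. RpL41 is the smallest ribosomal protein, RpL39 lines the exit tunnel, RpL37 and RpL37A are zinc-binding proteins of the large subunit, and RpS29 is a zinc-binding protein of the small subunit. RpL41 had 1295 CPM at E8D, 797 CPM at 1L1D and 941 CPM at 1LM, with a log2 ratio of −0.70 (−0.74 to −0.66) for 1L1D over E8D. RpL39 had 827, 528 and 603 CPM and RpS29 had 944, 625 and 754 CPM. RpL37 had 3925, 2565 and 2630 CPM and RpL36A had 3866, 2576 and 2823 CPM. So RpL41, RpL39, RpS29, RpL37 and RpL36A were highest in CPM at E8D and lowest at 1L1D, whereas the typical member was highest at 1L1D. The levels of RpS21 and RpL37A are not given, and that order does not extend to both. Of the members outside this set, RpL38 lay at −0.04 and RpS28 at −0.36 from the median member. Whether the length of a member goes with this distance was not tested.

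The summed UMIs of the 7 genes, as a percent of member UMIs, were lowest at 1L1D over the cell clusters too. Their CPM and the single genes were not compared between stages by cluster. The 7 genes were picked after their values were seen, for being low at 1L1D, so the direction is a description. Of all member UMIs, they took 6.77% at E8D, 3.79% in the 1L1D library and 4.61% at 1LM. Over the clusters of each library, defined without ribosomal protein genes as described further on, their part was 6.07% to 7.17% in the 8 clusters of E8D, 3.27% to 4.20% in the 11 of 1L1D and 4.21% to 5.13% in the 11 of 1LM. The ranges of the 3 libraries did not overlap, although those of 1L1D and 1LM nearly met. Cells of 1 library share their preparation and sequencing, which cannot be told apart from the stage. With all deposited barcodes RpL37, RpL39 and RpL41 passed the 2-fold distance and raised the count at 1L1D over E8D from 3 to 6, and with the mean over cells RpL39 and RpL41 passed it and raised the count to 5.

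**Figure D3:**
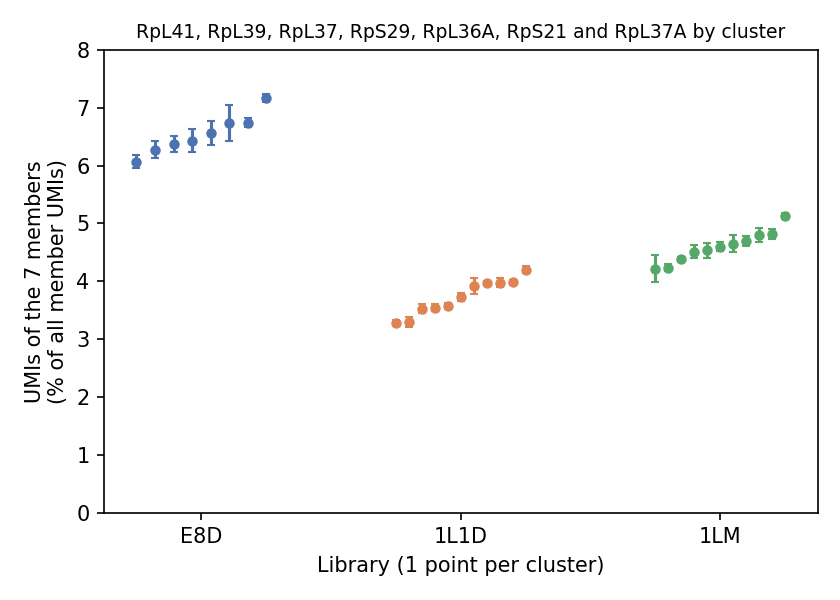
UMIs of RpL41, RpL39, RpL37, RpS29, RpL36A, RpS21 and RpL37A as a percent of all member UMIs (y axis), 1 point per cluster of at least 50 cells with its exact 95% counting interval, by library. The clusters span 6.07% to 7.17% at E8D, 3.27% to 4.20% at 1L1D and 4.21% to 5.13% at 1LM.

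A few other members stood near the 2-fold limit at the molt and were named after their values were seen. For 1LM over 1L1D, RpS27, a zinc-binding small subunit protein, lay 0.86 above the median member and RpL36, of the large subunit, 0.85 above. RpS27 had 3544, 3401 and 5189 CPM and RpL36 had 2445, 2886 and 4383 CPM, so both were highest at 1LM. RpS7, a small subunit protein needed to process ribosomal RNA, lay lowest among the 75 in that comparison, at −0.66, with 2665, 3034 and 1616 CPM. RpL35A, of the large subunit, lay lowest for 1LM over E8D, at −0.92, with 4490, 3842 and 2419 CPM, and so was lower at each later stage.

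RpS10, RpS15 and RpL38 are described because the study names them. RpS10 and RpS15 belong to the small subunit and RpL38 to the large. Over all cells RpS10 had 2113, 2861 and 2797 CPM, RpS15 had 1798, 2212 and 1786 CPM and RpL38 had 1813, 2084 and 1419 CPM. None was 2-fold away from the median member in any comparison. For 1L1D over E8D their log2 CPM ratios were 0.44 (0.41 to 0.46), 0.30 (0.27 to 0.33) and 0.20 (0.17 to 0.23). Over all cells, all 3 were thus higher at 1L1D than at E8D. From 1L1D to 1LM RpS10 hardly moved (−0.03) while RpS15 (−0.31) and RpL38 (−0.55) were lower at 1LM.

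Cell clusters differed in ribosomal protein share by up to 3.45-fold within a library. Each library was clustered by itself with the members left out of the clustering genes, and clusters were called by a cell type of the study only when its markers stood out, so these names are rebuilt and may differ from the study's. Of 20 named clusters 9 had none of their type's markers among their 10 leading genes, and these are given here with their number. Over clusters of at least 50 cells the share ran from 9.87% to 34.1% at E8D, from 16.5% to 42.9% at 1L1D and from 12.4% to 36.1% at 1LM. In each library the cluster with the highest share had FIBH or P25, which encode parts of the fibroin complex, among its 5 leading genes. These were cluster 4 at E8D, of 487 cells like the fibroin protein-synthesizing cells (FPS-like), with 34.1% (34.01 to 34.15), cluster 4 at 1L1D, FPS-like by marker level but with no FPS marker among its leading genes, with 502 cells, with 42.9% (42.88 to 42.98), and cluster 3 at 1LM, unnamed with 861 cells and led in part by P25, with 36.1% (36.04 to 36.16). Their silk protein genes took 0.66%, 18.3% and 6.15% of UMIs. With silk protein and mitochondrially encoded genes taken out of the denominator the highest shares were 35.4%, 55.5% and 39.5%.

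The lowest shares belonged to other cell types. At E8D cluster 6, like the endoplasmic reticulum stress signaling cells (ERSS-like), had 9.87% (9.79 to 9.95), and the other ERSS-like cluster had 14.4%. At 1L1D clusters 5 and 6, like the traction forces cells of the anterior gland (TR-like), had 16.5% and 17.01%, of which cluster 6 had no TR marker among its leading genes. At 1LM the cluster like the sericin protein catabolism cells (SPC-like) had 12.4% (12.4 to 12.5), and those like the epithelial cell remodeling cells (ECR-like) had 13.7% and, without such a marker among the leading genes of its cluster 7, 14.3%. The lowest cluster had a median depth of 1024, 8046 and 2743 UMIs in the 3 libraries and the highest 2284, 5509 and 2158, so the lowest was the shallower at E8D and the deeper in both larval libraries.

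**Figure D4:**
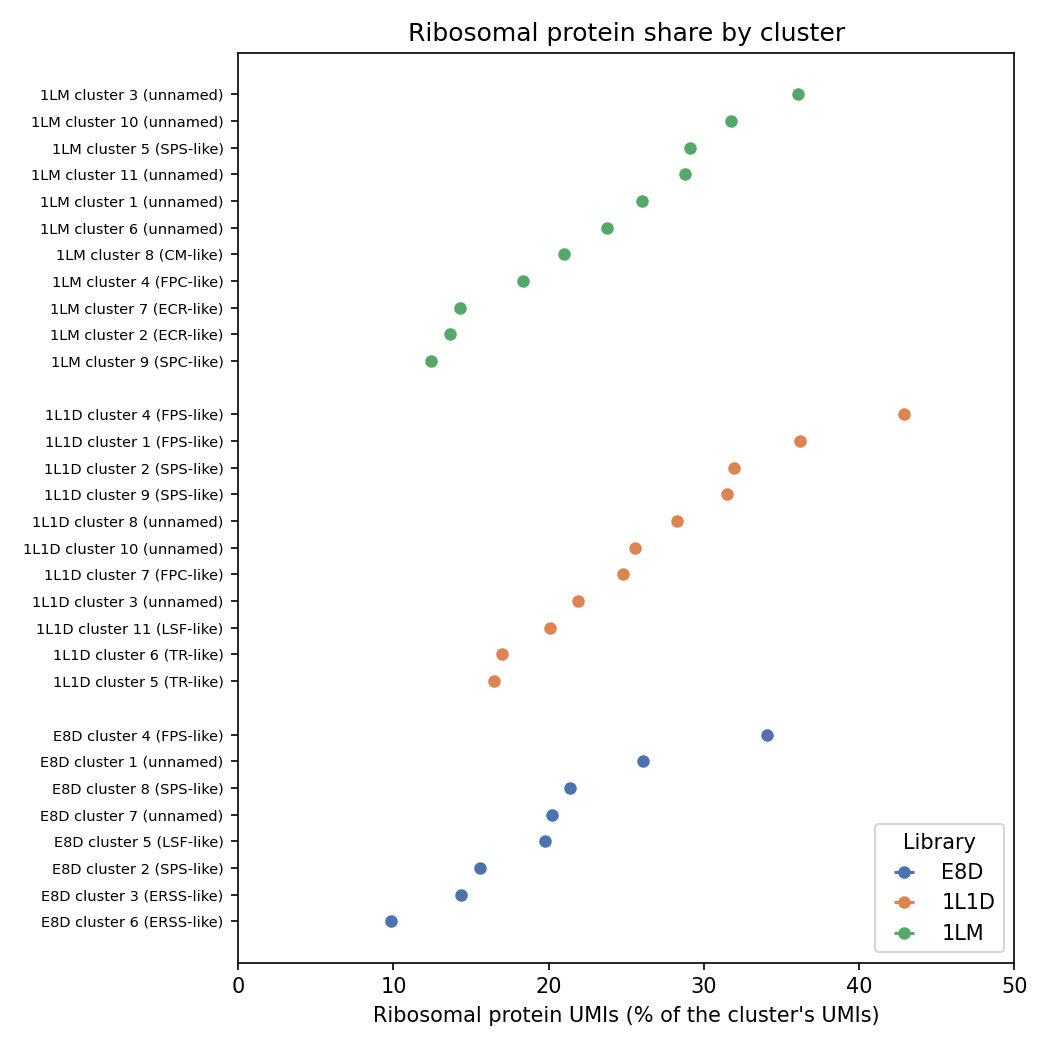
Ribosomal protein UMIs as a percent of the cluster's UMIs (x axis) for each cluster of at least 50 cells, sorted within library, with exact 95% counting intervals that are smaller than the points. The highest clusters have 34.1%, 42.9% and 36.1% and the lowest, an ERSS-like, a TR-like and an SPC-like cluster, 9.87%, 16.5% and 12.4%. For 9 of the 20 names no marker is among the cluster's 10 leading genes.

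Clusters of one name were set side by side across stages only where both had a marker of that name among their leading genes. This left 2 pairs. Clusters like the fibroin protein-synthesizing cells had 34.1% at E8D (cluster 4) and 36.2% at 1L1D (cluster 1). Those like the sericin protein-synthesizing cells (SPS-like) had 31.95% at 1L1D (cluster 2) and 29.1% at 1LM (cluster 5). The share was thus higher at 1L1D in both pairs. RpS10 had 3306 and 3781 CPM in the FPS-like pair and 3176 and 3383 CPM in the SPS-like pair. In the same order RpS15 had 2662 and 3042, then 2871 and 2213 CPM, and RpL38 had 2976 and 2367, then 2157 and 1654 CPM. In the FPS-like pair RpL38 was lower at 1L1D than at E8D, unlike over all cells. Clusters 2 and 8 of E8D met the marker level for SPS-like with no SPS marker among their leading genes, and cluster 2 had the fat body gene LOC101739785 among them. They had 15.6% and 21.4%, and cluster 7 of E8D, unnamed and led by the sericin gene LOC101740082, had 20.2%. Cluster 7 of 1L1D, named FPC-like for the fibroin protein catabolism cells by marker level alone although the study places these cells at 1LM only, had 24.8%, and the FPC-like cluster of 1LM, with 3 markers among its leading genes, had 18.4%.

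Unnamed clusters of shallow barcodes lay above their library's share at E8D and 1LM and below it at 1L1D. Cluster 1 at E8D, with 1950 cells at a median of 654.5 UMIs, had 26.1%. Cluster 3 at 1L1D, with 614 cells at 1406.5 UMIs, had 21.9%, and cluster 10, with 116 cells, 25.6%. Cluster 1 at 1LM, with 2110 cells at 977 UMIs, had 25.99% with quartiles of its cells at 24.2% and 26.99%. Mitochondrially encoded genes were among the leading genes of both clusters 1 and of cluster 3. Whether these barcodes hold free RNA rather than cells was not tested. Without the unnamed clusters below the library's median depth the shares were 22.2%, 28.04% and 23.5%, and the same counts of members departed from the median member.

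While the total share differed between clusters, the relative amounts of the members seldom differed by 2-fold. Each member's part of member UMIs was compared between a cluster and the other cells of its library. A difference of 2-fold or more with an interval that left out 0 was found in 1 of 616 pairs of member and cluster at E8D, 7 of 847 at 1L1D and 2 of 858 at 1LM. Over the pairs of all genes and clusters, taken relative to member UMIs in the same way, 19.6%, 35.8% and 37.4% differed as much. Those percents also take in the differences in total member share between clusters, so they are not a like measure of spread. RpL7Ae accounted for 6 of the 10 pairs of member and cluster. It was low in the ERSS-like cluster 6 at E8D (log2 ratio −1.34), in clusters 5 and 6 at 1L1D (−1.34 and −2.33) and in the unnamed cluster 6 at 1LM (−1.33), and high in clusters 9 and 10 at 1L1D (1.06 and 2.03). In the FPS-like pair of clusters RpL7Ae had 789 CPM at E8D and 90.2 CPM at 1L1D, and in the SPS-like pair 120 CPM at 1L1D and 381 CPM at 1LM, so its dip at 1L1D was seen in both. Of the abundant members only RpL41 appeared among the 10, low in the unnamed cluster 8 at 1L1D (−1.06). The large over small ratio of clusters ran from 1.09 to 1.15 at E8D, 1.03 to 1.12 at 1L1D and 1.10 to 1.16 at 1LM, the lowest in cluster 5 of 1L1D.

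Members also varied between single cells. The variance of a member's UMIs, given the member UMIs of each cell, was divided by what multinomial counting gives, and a ratio of 1.5 or more was marked. This marked 4 members in the E8D library, 39 in 1L1D and 6 in 1LM, or 5.19%, 50.6% and 7.69% of those with at least 100 UMIs. Of all genes with at least 100 UMIs, taken relative to member UMIs in the same way, 19.3%, 14.8% and 35.3% were marked, and of those with at least as many UMIs as RpL39, the lowest of the 75 abundant members, 35%, 76% and 54.9%. For genes other than members, these percents also take in how the total member share differed between cells, so they are not a like measure. The ratio grows with depth and level, and the median cell had 143, 550 and 288 member UMIs, so the counts of the 3 libraries cannot be compared with each other. The 3 largest ratios at E8D were those of RpS3Ae (2.19), RpL7A (1.73) and RpLP2 (1.56), at 1L1D those of RpLP2 (4.52), RpL41 (2.50) and RpS3Ae (2.44), and at 1LM those of RpL3 (2.05), RpLP2 (1.92) and RpL41 (1.81). RpL3 and RpL7A are large subunit proteins, and RpS3Ae belongs to the small subunit. Counting error taken off, RpLP2 varied between cells with a coefficient of variation of 21.7%, 25.6% and 24.8% and RpL41 with 60.1%, 70.0% and 55.4%, against 19.5%, 18.6% and 17.2% for the median member. Over clusters RpLP2's part of member UMIs spanned 2.26% to 3.28% at E8D, 3.36% to 5.40% in the 1L1D library and 3.03% to 5.24% at 1LM.

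Genes of other steps of translation did not all follow the ribosomal proteins. All 5 elongation factor genes had a higher CPM at 1L1D than at E8D and a lower CPM at 1LM than at 1L1D. Their median log2 CPM ratios were 0.60 and −0.34, next to 0.25 and −0.25 for the members, and none reached 2-fold. The gene lists cover only genes described in the study's tables, many of which were chosen on these libraries. Ef1beta had the highest ratio at 1L1D over E8D (0.86, interval 0.82 to 0.90) and EF1a the lowest (0.27, interval 0.25 to 0.28). For 1LM over 1L1D Ef-1d (−0.02) and Ef-1g (−0.57) were the ends of the list. For 1LM over E8D these were Ef-1d (0.71) and EF1a (−0.05), and the list's median was 0.26, which turned to −0.57 with TMM and −0.65 with DESeq2 factors.

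The 13 ribosome assembly genes tested, of 14 listed, went the opposite way at 1L1D. All 13 had a lower CPM at 1L1D than at E8D and 10 of them were called lower, with a median log2 CPM ratio of −1.41, where 22.4% of all genes tested were called lower and the median of all genes was −0.29. For 1LM over 1L1D 11 were called higher with a median of 1.37, against 57.9% of all genes and a median of 1.17. For 1LM over E8D 1 was called higher and 2 lower, against 46.3% and 5.68% of all genes, with a median of 0.04 that turned to −0.78 with TMM and −0.87 with DESeq2 factors. LOC101746268, annotated as nucleolin, a protein of the nucleolus, had the lowest ratio at 1L1D over E8D (−2.34, interval −2.40 to −2.27) and at 1LM over E8D (−1.27). LOC101735682, midasin, a motor protein that remodels the large subunit before export, had the highest at 1LM over 1L1D (3.41, interval 3.31 to 3.50) and at 1LM over E8D (1.99). LOC101746755, annotated as RLP24, hardly moved (−0.04, 0.08 and 0.04), and LOC101741801, nucleolar GTP-binding protein 1, was the lowest at 1LM over 1L1D (−0.23). The list took 0.643% of UMIs in the FPS-like cluster 4 of E8D and 0.158% in cluster 1 of 1L1D, and 0.174% in the SPS-like cluster 2 of 1L1D and 0.396% in cluster 5 of 1LM.

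Mitochondrial ribosomal proteins, which build the separate ribosome of the mitochondrion, were also low at 1L1D. All 11 had a lower CPM at 1L1D than at E8D and 9 were called lower, against 22.4% of all genes, with a median log2 CPM ratio of −1.45. From 1L1D to 1LM all 11 had a higher CPM and 3 were called higher, against 57.9% of all genes, with a median of 0.70, below the 1.17 of all genes, and the median turned to −0.41 with TMM and −0.46 with DESeq2 factors. For 1LM over E8D 1 was called higher and 4 lower, against 46.3% and 5.68% of all genes, with a median of −0.59. mRpS10 had the lowest ratio at 1L1D over E8D (−2.58, interval −2.88 to −2.28) and mRpS21 the highest (−0.37). mRpS14 (0.40) and mRpS21 (1.72) were the ends of the list at 1LM over 1L1D, and mRpL12 (−1.43) and mRpS21 (1.35) those at 1LM over E8D.

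Initiation factors, which bring the mRNA and the first transfer RNA to the small subunit, were mixed. The list was matched by description and also took in LOC732945, LOC101745835 and LOC101745567. These are described as 4E-binding proteins and a kinase of initiation factor 2, not as initiation factors. Of 15 tested at 1L1D over E8D, 7 had a higher and 8 a lower CPM, with 1 called lower, against 22.4% of all genes, and a median log2 CPM ratio of −0.35. For 1LM over 1L1D 5 of 16 were called higher and 1 lower, against 57.9% and 5.01% of all genes, with a median of 0.43 that turned to −0.68 with TMM and −0.73 with DESeq2 factors. In 1LM over E8D 2 were called higher and 1 lower, against 46.3% and 5.68% of all genes, with a median of 0.25 that turned to −0.57 and −0.66. The 2 called higher there were LOC101745567 and LOC101745835 and the 1 called lower LOC732945, so no initiation factor proper was called. The same 2 genes were among the 5 called higher at 1LM over 1L1D, and LOC732945 was the 1 called lower. LOC733143, the second subunit of initiation factor 2, was lowest at 1L1D over E8D (−1.31) and eIF3h highest (0.67). LOC732945, annotated as a 4E-binding protein, which holds back cap-dependent initiation, went the other way to the list, at 0.63, −1.64 (−1.72 to −1.56) and −1.01. Its levels were 230 CPM at E8D, 355 CPM at 1L1D and 114 CPM at 1LM, the highest on day 1 of the first instar and the lowest at the molt. LOC101745835, annotated as the 4E-binding protein Mextli, had the highest ratio at 1LM over 1L1D (1.89), and LOC101745567, a kinase of initiation factor 2 with 10, 55 and 135 UMIs, the highest at 1LM over E8D (2.82).

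**Figure D5:**
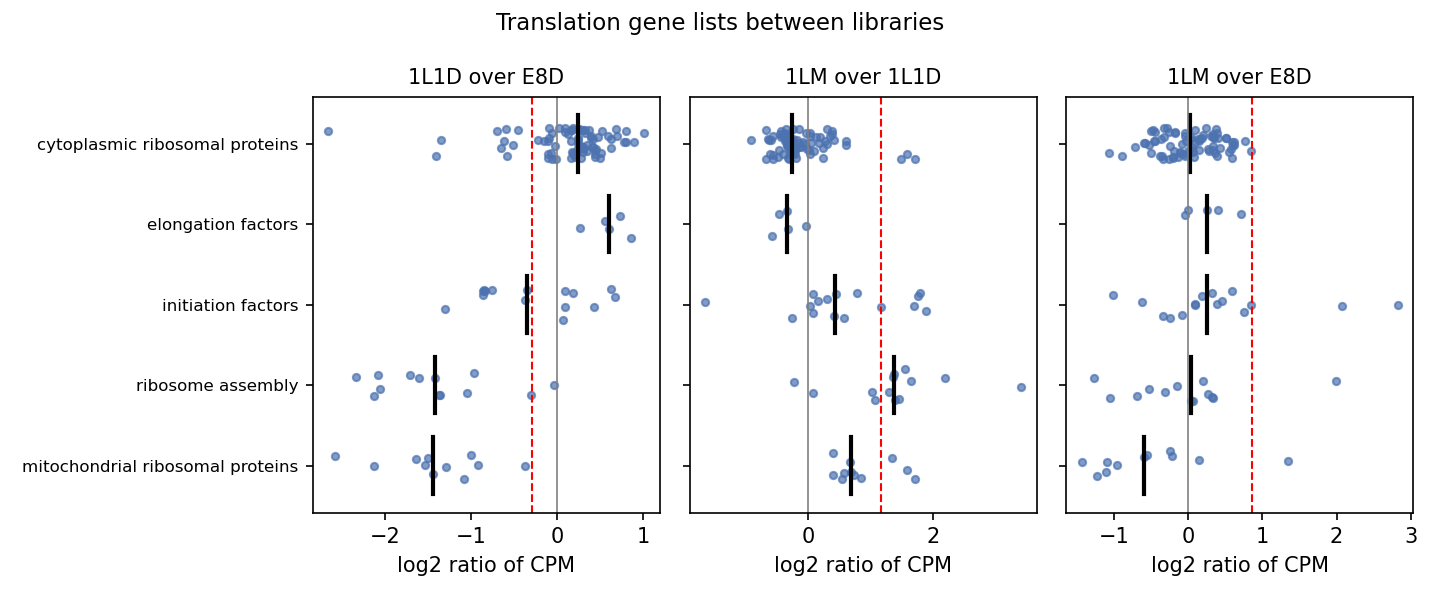
Log2 ratio of CPM between libraries (x axis) for each gene with at least 100 UMIs in the pair, by gene list, with black bars at the list medians, a grey line at 0 and a red dashed line at the median of all genes tested. At 1L1D over E8D the members and elongation factors have medians of 0.25 and 0.60, the assembly and mitochondrial lists −1.41 and −1.45; DESeq2 and TMM scaling shift each whole panel.

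The 5 ribosomal proteins that the prefix rule missed stayed within 2-fold. None was called in any comparison, and the median log2 CPM ratios were 0.08, 0.17 and 0.25, of which the second turned to −0.94 and −0.99 and the third to −0.57 and −0.66 with TMM and DESeq2 factors. Rack1, a scaffold on the small subunit, had the highest ratio at 1L1D over E8D (0.55) and at 1LM over E8D (0.57), and LOC101738375 the lowest in both (−0.47 and −0.29). LOC692779, a fusion of ubiquitin with ribosomal protein L40, had the highest at 1LM over 1L1D (0.23) and RpP1 the lowest (−0.02). Together they held 1.87%, 1.98% and 2.09% of UMIs. By the gene order of a later assembly (ASM3026992v2), where 77 of the 79 members matched by symbol, 0 pairs of the matched members were direct neighbours among protein-coding genes. RpL24 and RpL24-2 were the unmatched ones, so their places were not checked.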

How the data were processed

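The files hold UMI counts per gene and cell barcode, which the authors made from 10x Genomics 3′ libraries with Cell Ranger 3.1.0 (STAR) on assembly ASM15162v1 and deposited unnormalized. The 79 members and all lists were chosen with earlier results of these data known. Samples were grouped by stage from the labels, with 1 library each and 0 columns left unused. After the study's methods, barcodes were kept within 2 SD of the library's mean ratio of UMIs to genes. They also had to hold 30% or less of UMIs from 13 mitochondrially encoded genes. This kept more cells than the study reports, so the shares are not exactly those of the study's cells. The downsampling that the methods mention was not repeated. Shares carry exact Clopper-Pearson intervals and CPM ratios exact binomial intervals at 95%, with no test and no p-value. Genes needed 100 UMIs in the pair of libraries.

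Cells were clustered per library (counts per 10000, log scale, 2000 variable genes without members, 30 principal components, 20 neighbours, Leiden resolution 0.8, seed 1). A cluster was named when its study markers had a median of at least 2-fold with 3 or more detected, unless markers of another gland region outnumbered its own among its 10 leading genes. Doublets were not removed beyond the ratio filter, and an alternative removed simulated-doublet neighbours (50 neighbours, 0.8% per 1000 cells).

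Named genes were those 2-fold from the median member, the 3 highest and 3 lowest by share and the 3 most variable between cells in each library, RpS10, RpS15 and RpL38 from the study's text, members under 100 UMIs in every library, and the ends of each other list. The other lists came from gene descriptions in the study's supplementary tables, which cover part of the features, because the RefSeq table used here holds no descriptions. Identifiers starting with mRp and LOC692779 were added to them after the files were seen. The authors' own fold changes and p-values were not used.

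Alternatives were all barcodes, a 20% mitochondrial limit, doublet removal, other denominators, means over cells, thinning, other count minimums, other cluster settings, and scaling by edgeR 4.0.16 (TMM) or DESeq2 1.42.0 (size factors) in R 4.3.3. The rest ran in Python 3.11.15 with scipy 1.17.1, scikit-learn 1.9.0 and leidenalg 0.10.2, and the calling rule was tested on simulated data.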

Additional observations from a re-analysis of the deposited data

How the results depend on the processing

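Scaling moved most. With edgeR's TMM factors the log2 ratio of the ribosomal protein share was 0.55 for 1L1D over E8D, −1.32 for 1LM over 1L1D and −0.77 for 1LM over E8D, with 5 members called higher in the first, 0 higher and 61 lower in the second and 27 lower in the third. DESeq2's size factors gave 0.51, −1.37 and −0.86, with 5 higher, 0 higher and 62 lower, and 30 lower. These scalings turned list medians for 1LM over 1L1D to −0.68 and −0.73 (initiation), −0.41 and −0.46 (mitochondrial) and −0.94 and −0.99 (outside the prefix rule), and for 1LM over E8D to −0.57 and −0.66 (initiation), −0.57 and −0.65 (elongation), −0.78 and −0.87 (assembly) and −0.57 and −0.66 (outside the prefix rule).

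In the order E8D, 1L1D and 1LM, the share was 24.9%, 30.8% and 25.6% with all deposited barcodes, 23.2%, 27.6% and 24.1% without doublets, 25.3%, 32.3% and 25.8% without silk protein and mitochondrially encoded genes, 20.7%, 29.2% and 23.9% as a mean over cells, and 22.2%, 28.04% and 23.5% without shallow unnamed clusters. A 20% mitochondrial limit gave 23.8% and 27.9% at E8D and 1L1D. The log2 ratios, in the order of comparisons above, were 0.31, −0.27 and 0.040 with all barcodes, 0.23, −0.22 and 0.011 with the 20% limit, 0.25 and −0.20 (first 2) without doublets, 0.35, −0.33 and 0.026 without silk protein and mitochondrial genes, 0.50, −0.29 and 0.21 as means over cells, and 0.33, −0.25 and 0.080 without shallow unnamed clusters. The median cell had 18.8%, 26.8% and 24.8% with all barcodes, 20.4% and 30.3% at E8D and 1L1D with the 20% limit, and 21.6% and 24.3% at E8D and 1LM when thinned to 1000 UMIs. Members 2-fold from the median member at 1L1D over E8D numbered 6 with all barcodes and 5 with means over cells. The large over small ratio at 1L1D was 1.107 with all barcodes and 1.105 as a mean over cells, and without the departing members and RpL29 it was 1.118 at E8D and 1.136 at 1LM.

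The lowest and highest cluster shares were 11.7% and 34.3% at E8D, 17.1% and 43.1% at 1L1D and a highest of 36.3% at 1LM with resolution 0.4. Resolution 1.6 gave 16.1% and 46.2% at 1L1D and 8.56% and 37.3% at 1LM. With members kept in the clustering they were 11.5% and 34.2%, 15.4% and 43.0%, and a highest of 36.3%. Without silk protein and mitochondrial genes they were 10.8% and 35.4%, 17.6% and 55.5%, and 13.2% and 39.5%. Members varying between cells numbered 1, 10 and 1 at a ratio limit of 2, and 0, 0 and 0 when thinned to 100 member UMIs, a depth of about 1 UMI a member at which the limit is hardly reachable, so that these zeros say nothing about the members. The cause of these shifts was not tested, and of the values recomputed for the main results 66 stayed within their limits, 69 moved beyond them, 2 reversed, and of the counts 8 came out higher and 8 lower by more than 1.5 times. Chosen after seeing the data were the cluster ranges without silk protein and mitochondrial genes, the thinning to 100 member UMIs, the ratio without departing members, the calls with all barcodes and the settings without shallow unnamed clusters.

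With 1 library per stage no value has an error between animals, and leaving out a replicate was not an option. No paired analysis was possible because the labels give no replicate numbers. Removed barcodes held up to 45.3% of a library's UMIs, and RpL24-2 and RpL29 rest on few UMIs.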
